A study of Mus musculus with 10 samples.

Results

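DNA sequencing was used to ask how the representation of the 19 autosomes moved between 10 and 20 passages (p10 and p20) in Mulas2019 conditions. The cells were male C57/Bl6 mouse embryonic stem cells (mESCs), which are cells of the early embryo that renew themselves in culture, and all were kept in 2i/LIF medium, in which 2 kinase inhibitors and a cytokine hold the cells in a naive pluripotent state. Mulas2019 is a published protocol in which cells are plated at low density on gelatin and passaged less often than in Keniry2022, the modified protocol of the study, in suspension. Both of the independently derived lines had been derived and expanded by the Keniry2022 method before they were split between protocols. The comparison was between 4 of the 10 libraries of the series, namely p10 and p20 of line 1 and line 2. Changes per line set each p20 library against the p10 library of its own line. Tests contrasted the group means, with the spread taken from all 10 libraries. Each group therefore held 2 libraries, 1 per line, and a line is 1 derivation and 1 culture. The autosomes were divided into bins of 1 Mb, and 2391 of 2473 autosomal bins held enough reads to be used, among 2541 used of 2737 bins when the sex chromosomes are counted too.

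Line 1 was sequenced to a depth of 27270648 reads at p10 and 35106917 at p20, and line 2 to 35354358 and 28600192 reads, so that a median autosomal bin held 11468 to 14853 reads. Levels are given as CPM, the read count of a bin scaled to a common library size, and changes as log2 of p20 over p10. Counting error alone gave an SD of 0.018 in each line on this scale. The Y chromosome was used to check the labels. It held 0.000880% and 0.000356% of reads at p10 and p20 in line 1 and 0.0594% and 0.0377% in line 2, so the p10 and p20 libraries kept the same order of lines, and line 1 all but lacked the Y chromosome that its label implies. Autosomal counts are the subject of what follows.

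In a mammalian genome, GC content, gene density and replication timing go together over megabases. GC-rich segments hold many genes and tend to replicate early in S phase, whereas AT-rich segments hold few genes, often large neuronal or tissue-specific ones, lie against the nuclear lamina and tend to replicate late. Gain or loss of a chromosome shifts all of its bins alike, whereas a difference that follows base composition runs through every chromosome. In mESCs, culture is known to favour cells with gained chromosomes. Because DNA was taken from whole cultures, a small change in all cells and a larger change in some of them cannot be told apart.

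Sequence from the centre of the bins with the largest changes is shown so that the base composition on which the changes were ordered can be seen. Each is a stretch of 200 bases of the GRCm38 (mm10) forward strand, with G and C in capitals, and neither overlaps an annotated gene. The first is chr3:101499901-101500100, with a GC content of 49.5%, in the bin with the largest gain at p20, and the second is chr5:59499901-59500100, with 37.5%, in the bin with the largest loss.
chr3:101499901-101500100: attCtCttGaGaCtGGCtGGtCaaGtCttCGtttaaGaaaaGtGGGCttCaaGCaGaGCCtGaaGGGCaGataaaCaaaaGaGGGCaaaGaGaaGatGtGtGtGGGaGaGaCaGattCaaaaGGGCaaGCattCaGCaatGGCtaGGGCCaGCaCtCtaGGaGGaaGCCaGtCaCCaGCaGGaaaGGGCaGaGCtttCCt
chr5:59499901-59500100: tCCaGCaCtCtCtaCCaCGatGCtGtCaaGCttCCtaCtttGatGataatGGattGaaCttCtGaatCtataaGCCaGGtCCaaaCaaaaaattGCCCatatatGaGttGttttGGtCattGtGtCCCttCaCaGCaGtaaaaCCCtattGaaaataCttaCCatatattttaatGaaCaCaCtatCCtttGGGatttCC
A stretch of this length need not stand for its bin. The centre of the bin with the next largest loss, chr1:110000001-111000000, had a GC content of 46% although the bin as a whole had 36.0%, and the centre of the bin with the next largest gain, which lies in an intron of Lmna, had 43.5% in a bin of 47.4%.

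GC-poor DNA was less represented at p20 than at p10, and GC-rich DNA was more represented, in both lines. When autosomal bins were ordered by GC content and cut into 10 classes, the lowest class (240 bins, median 36.8%) had a median level of 321 CPM in line 1 and 338 CPM in line 2 at p10, and 262 and 265 CPM at p20. Both p20 libraries thus lay below both p10 libraries. In the highest class (239 bins, median 48.3%), the median level was 457 CPM in both lines at p10 and 523 and 507 CPM at p20. Here both p20 libraries lay above both p10 libraries.

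**Figure D1:**
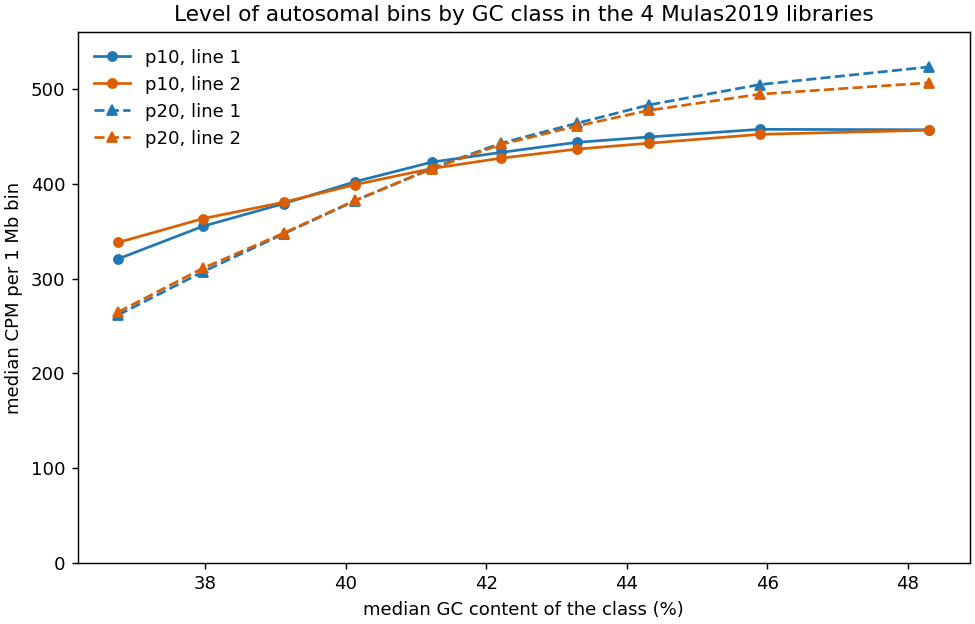
Median CPM per 1 Mb bin (vertical axis) in 10 classes of autosomal bins ordered by GC content (horizontal axis, median percent of the class), with circles and full lines for p10, triangles and dashed lines for p20, and 1 colour per line. The p20 libraries run from 262 and 265 CPM to 523 and 507 CPM, a steeper course than the 321 and 338 to 457 CPM of p10, and the curves cross near the fifth class.

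The level of autosomal bins went up with their GC content over the classes, more steeply at p20, except that at p10 in line 1 the ninth class had a median of 457.5 CPM and the highest 457.1 CPM. The slope of log2 CPM per percent GC was 0.040 at p10 and 0.081 at p20 in line 1, and 0.034 and 0.074 in line 2. The change from p10 to p20 itself had a slope of 0.041 per percent GC in line 1 and 0.040 in line 2, with a Pearson's r across bins of 0.94 and 0.86. The slopes of the 2 lines differed by far less than their distance from 0. As bins of 1 library share its depth and preparation, these correlations are descriptions.

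**Figure D2:**
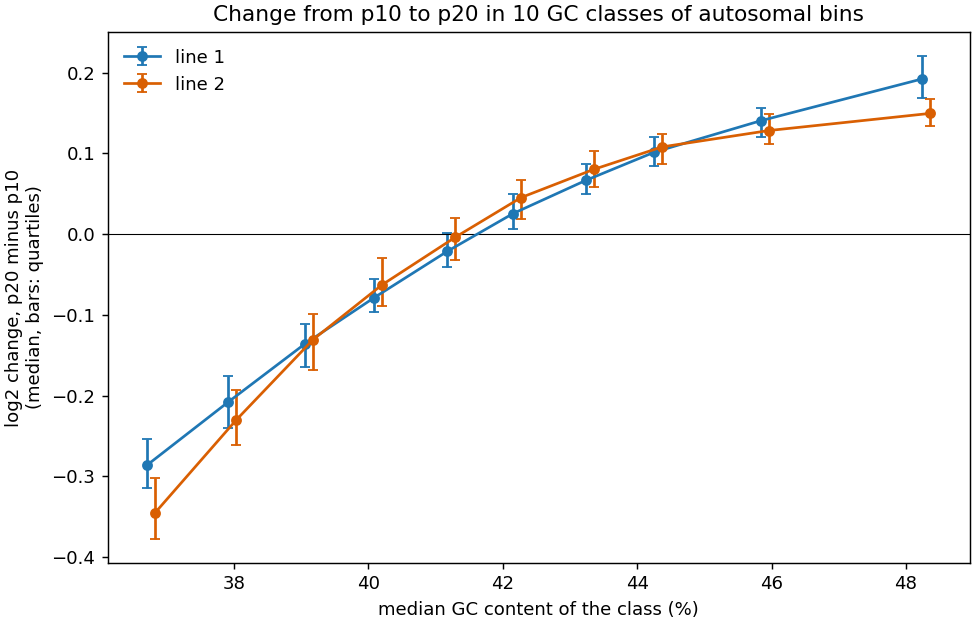
Log2 change from p10 to p20 (vertical axis, median with quartiles as bars) in the same 10 GC classes (horizontal axis, median percent GC), with 1 colour per line. The medians run from -0.29 and -0.34 in the lowest class to 0.19 and 0.15 in the highest and pass 0 between the fifth and the sixth class in both lines.

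The 10 GC classes followed each other without exception in both lines. The median change was -0.29 in line 1 and -0.34 in line 2 in the lowest class, -0.21 and -0.23 in the next, -0.02 and -0.0038 in the fifth, and 0.19 and 0.15 in the highest. In the lowest class 239 of 240 bins had a lower level at p20 in both lines, and in the highest class 239 of 239 had a higher level in both. Line 2 had the larger change at the GC-poor end and line 1 at the GC-rich end.

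Bins were then tested one by one in limma, with its TREAT method, for a change beyond 1.1-fold at a Benjamini-Hochberg adjusted p of 0.05. Of 2391 autosomal bins, 424 (17.7%) passed, and 398 of these were lower and 26 higher at p20. The split was 2 higher and 448 lower with each library centred on its autosomal median, 48 and 377 with CPM computed without chromosome 3, and 1031 and 893 with no minimum change. With the 4 Mulas2019 libraries alone and no block for the line, it was 14 higher and 376 lower. Over all 2541 bins of the fit, the sex chromosomes included, 483 (19%) passed, 18% lower and 1.02% higher. The lower bins came mostly from the GC-poor end, with 216 of 240 bins in the lowest class (90%), 160 of 239 in the next and 22 in the remaining 8 classes together. The higher bins came from the GC-rich end, with 15 in the highest class and 7 in the class below it. The count of higher bins turned on single libraries. It was 1 without p10 replicate 1, 8 without p10 replicate 2, 53 without p20 replicate 1 and 44 without p20 replicate 2, all of Mulas2019, and also 44 without any 1 of the Keniry2022 libraries. The count of lower bins was 293 to 409 over the 10 fits without 1 library, and 283 of the 398 lower bins passed in every one of these fits, against 0 of the 26 higher bins.

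The lower bins held few genes. The 398 bins contained the starts of 1045 protein-coding genes, and 177 of them (44.5%) contained none, against 11.5% of all autosomal bins. Seen from the other side, 177 of the 275 autosomal bins without a protein-coding gene passed as lower (64.4%), with median changes of -0.25 and -0.26 in lines 1 and 2. Of the 408 bins with 16 or more genes, 17 passed as lower and 11 as higher, and the median changes were 0.14 and 0.12. Bins with few and many genes were also compared at a like GC content, in classes 3, 5 and 7 but not in classes 1 and 2, which held 216 and 160 of the 398 lower bins. In the fifth GC class, bins with 5 genes or fewer had medians of -0.02 and -0.0032 and bins with more genes had -0.02 and -0.0045, and in the third class the values were -0.13 and -0.13 against -0.14 and -0.13.

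Lower bins lay next to each other in long segments. The 398 bins formed 161 runs of adjacent bins, of which 64 were a single bin and 21 were 5 Mb or longer, and the longest was 11 Mb. The 26 higher bins formed 23 runs, the longest 3 Mb. The 6 runs of 8 Mb or longer are described by the genes that start in them. On chr14:88000001-99000000, all 11 bins were lower, by 0.18 to 0.37 in line 1 and 0.20 to 0.42 in line 2, and the 6 protein-coding genes there include the protocadherins Pcdh9 and Pcdh20 and the transcription cofactor gene Dach1. On chr15:14000001-25000000, again all 11 bins were lower, with a mean log2FC of -0.31, and 4 of the 5 genes are the cadherins Cdh9, Cdh10, Cdh12 and Cdh18. On chr14:106000001-115000000, with a mean log2FC of -0.30 over 9 bins, lie Slitrk1, Slitrk5 and Slitrk6, which encode neuronal surface proteins. On chr5:55000001-63000000, which had the lowest mean of the 6 (-0.35 over 8 bins), lie Arap2, Dthd1, G6pd2 and the protocadherin gene Pcdh7. On chr5:78000001-86000000, with -0.31 over 8 bins, lie the ephrin receptor gene Epha5, Adgrl3, which encodes an adhesion receptor of synapses, and Tecrl. On chr13:82000001-90000000, with -0.28 over 8 bins, lie 8 genes, among them Mef2c, a transcription factor gene of muscle and neurons, Vcan, which encodes a matrix proteoglycan, the cyclin gene Ccnh and Cox7c, which encodes a subunit of cytochrome c oxidase.

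The single bin with the largest loss was chr5:59000001-60000000, which has a GC content of 36.3% and no protein-coding gene. Its level was 317 CPM in line 1 and 339 CPM in line 2 at p10, and 242 and 251 CPM at p20, a log2FC of -0.41 (SE 0.029, limma adjusted p 2.2e-04). Its neighbour chr5:60000001-61000000 had -0.39 (SE 0.029), and the groups did not overlap in either bin. Both bins were picked as large losses and lie in the lowest GC class, where 239 of 240 bins were lower in both lines. The bin chr1:110000001-111000000, with Cdh19 as its only protein-coding gene, went from 321 and 342 CPM to 246 and 255 CPM (log2FC -0.40, SE 0.031), and chr1:147000001-148000000, which has no such gene, had -0.39 (SE 0.032). On chromosome 14 the bin at 93000001, where Pcdh9 starts, had -0.40 (SE 0.028) and the bin at 83000001 had -0.39 (SE 0.029). The list of the 8 largest losses was completed by bins that are rich in genes and poor in GC. The bin chr7:85000001-86000000 holds 9 genes, all vomeronasal receptors, which sense pheromones in the nose, and fell by 0.38 on the log2 scale (SE 0.031), while chr2:86000001-87000000 holds 50 genes, 49 of them olfactory receptors, and also fell by 0.38 (SE 0.032). All 8 passed in each of the 10 fits without 1 library.

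The largest gains lay on chromosome 3. The bin chr3:101000001-102000000 holds 7 protein-coding genes, among them Cd2, which encodes a surface protein of T cells. Its level was 474 and 486 CPM at p10 and 564 and 625 CPM at p20 (log2FC 0.31, SE 0.042, limma adjusted p 0.0074). The bin chr3:88000001-89000000 holds 36 genes, among them Lmna, which encodes lamins A and C of the nuclear envelope, and Ash1l, which encodes a histone methyltransferase, and went from 434 and 456 CPM to 528 and 575 CPM (log2FC 0.31, SE 0.039, limma adjusted p 0.0042). In both bins the p20 libraries lay above the p10 libraries, and both passed in 9 of 10 fits without 1 library, the exception being the fit without p10 Mulas2019 replicate 1. They were picked as the largest gains and lie in the ninth and the highest GC class. There 238 of 239 and 239 of 239 bins were higher in both lines. Outside chromosome 3 the largest gains were close to each other. They were 0.22 (SE 0.028) at chr4:130000001-131000000, which holds the collagen gene Col16a1, 0.22 (SE 0.029) at chr9:21000001-22000000, which holds the dynamin gene Dnm2, and 0.22 (SE 0.021) at chr11:114000001-115000000, which holds the ribosomal protein gene Rpl38. The next were 0.22 (SE 0.029) at chr4:137000001-138000000 with the small GTPase gene Cdc42, 0.22 (SE 0.026) at chr11:88000001-89000000 with the splicing factor gene Srsf1, and 0.22 (SE 0.020) at chr8:117000001-118000000 with the phospholipase gene Plcg2. These 6 bins passed in 4 to 9 of the 10 fits without 1 library.

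Removal of the GC trend left no bin past the threshold. The trend was removed from each library with a loess curve of log2 CPM on GC content, which accounted for 94.4% of the variance of the change over autosomal bins in line 1 and 88.1% in line 2. Afterwards 0 bins passed with limma's TREAT (0% of 2541), with 1 autosomal bin at an unadjusted p under 0.05, and with the line as a fixed effect there were again 0 and 1. The SD of the change was 0.15 in line 1 and 0.16 in line 2 before the correction and 0.036 and 0.057 after it, or 0.029 and 0.033 without chromosome 3, against 0.018 for counting alone. Adjacent bins outside chromosome 3 had had a correlation of 0.75 in line 1 and 0.74 in line 2, and this was 0.17 and 0.18 after the correction. The source of the GC trend was not tested.

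The lines resembled each other most in what the GC trend carried. Across autosomal bins the change in line 1 and line 2 had a Pearson's r of 0.96, and 2226 of 2391 bins (93.1%) had the same sign. With the trend removed r was 0.74, and without chromosome 3 it was 0.53, with 1509 of 2234 bins (67.5%) of the same sign. These too are descriptions across bins, which share their 4 libraries.

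**Figure D3:**
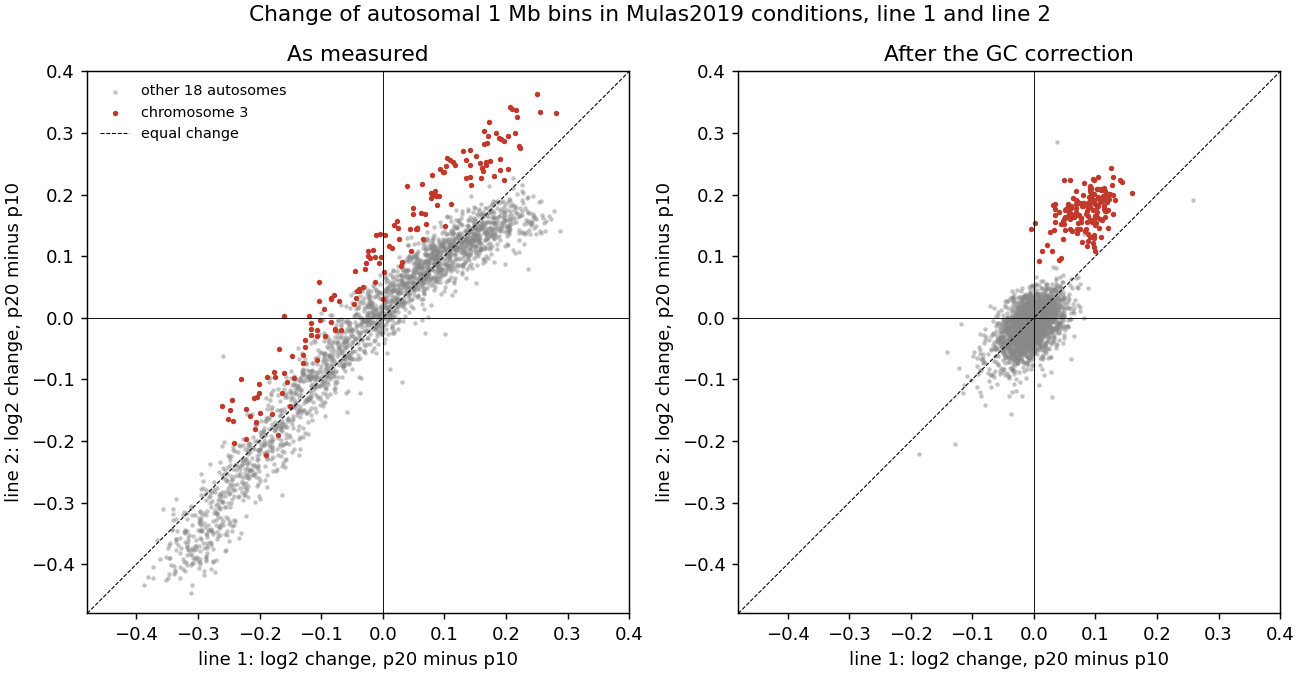
Log2 change from p10 to p20 in line 1 (horizontal axis) and line 2 (vertical axis), 1 point per autosomal bin, as measured (left) and after the GC correction (right), with chromosome 3 in red and a dashed line of equal change. The grey bins of the other 18 autosomes lie along the dashed line on the left and gather around 0 on the right, and the 157 bins of chromosome 3 stand apart on the right at medians of 0.09 in line 1 and 0.17 in line 2.

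Single bins that stood out after the GC correction were examined by their values. The lowest was chr7:59000001-60000000, where the only protein-coding gene start is that of Ube3a, a ubiquitin ligase gene that is imprinted in neurons. Its level was 193 and 192 CPM at p10 and 167 and 165 CPM at p20, and its GC-corrected change was -0.19 in line 1 and -0.22 in line 2 (mean -0.20, SE 0.017, unadjusted p 0.0015, limma adjusted p 1 with the minimum change and 3.8e-04 without it). Of its sequence 60.7% is repeat-masked, against a median of 31.7% over autosomal bins. Next came chr8:55000001-56000000, with Glra3, a glycine receptor subunit gene, at -0.13 and -0.20, and chr7:11000001-12000000 at -0.12 and -0.12. The latter holds the Zscan4 cluster, which mESCs switch on in a rare state that resembles the embryo at its first cleavage, together with vomeronasal receptors. The bin chr17:22000001-23000000, with zinc finger and vomeronasal receptor genes, had -0.11 in both lines.

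With no minimum change, 23 autosomal bins (0.962%) passed after the GC correction, 22 lower and 1 higher. Of the 22 lower bins, 9 held the start of a vomeronasal receptor gene, as did 46 of all 2391 bins (1.92%), and others held the Cyp2c cluster of cytochrome P450 genes (chr19:39000001-40000000, mean -0.08) and the Mrgpr cluster of sensory receptor genes (chr7:48000001-49000000, mean -0.08). The median repeat-masked share of the 22 bins was 47.6%. Members of these clusters resemble each other in sequence, so reads may be shared between copies, and the part of this in the values was not tested. The higher bin was chr11:107000001-108000000, with the chromatin remodelling gene Bptf, at 0.07 in both lines. The GC-corrected changes of 0.26 and 0.19 at chr17:39000001-40000000, which holds secreted peptide genes of the Esp family, did not pass (limma adjusted p 0.117 without the minimum), and the changes of this bin as measured were 0.011 and -0.08. The bin chr2:98000001-99000000 had GC-corrected changes of 0.038 and 0.28, the largest difference between lines of all autosomal bins, and did not pass either. As measured, its level went from 3681 to 3077 CPM in line 1 and from 3358 to 3217 CPM in line 2, far above that of a median bin.

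Gene groups were described by the bins in which their members start. Among 53 bins with 5 or more olfactory receptor genes, 14 passed as lower and 0 as higher, where 398 of all 2391 autosomal bins (16.6%) passed as lower and 26 (1.09%) as higher, and the median log2FC was -0.09 against 0.014 over all autosomal bins. The 14 bins lay on chromosomes 2, 7, 9, 10, 17 and 19. Among 24 bins with vomeronasal receptor genes, 7 passed as lower, again beside 16.6% of all autosomal bins, with a median of -0.12. Both groups are GC-poor, with median GC contents of 40.1% and 39.7%. Their GC-corrected medians were -0.03 and -0.05, against -0.0052 over all autosomal bins, and 0 bins passed. The prolactin cluster at chr13:27000001-28000000, which holds 21 protein-coding genes, 20 of them counted in the family by symbol, was lower at -0.33 (SE 0.027). Among 20 bins with zinc finger genes 1 passed, as lower, and among 7 with cytochrome P450 genes 1 passed, also as lower, both to be read beside the same 16.6%. The 4 bins with Hox genes, the 3 with keratins, the 4 with serpins and the 3 with beta-defensins had 0 that passed, with medians of 0.12, 0.16, 0.03 and -0.04. Of the 4 bins with histone genes, 1 passed as higher, and it lies on chromosome 3.

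Genes of pluripotency lie mostly in GC-rich DNA. Their 22 bins had a median GC content of 45.3% and a median log2FC of 0.14, and 2 passed, both higher, where 1.09% of all autosomal bins passed as higher and 17.7% in either direction. One holds Esrrb, an orphan nuclear receptor gene of the naive state, and went from 463 and 468 CPM to 544 and 528 CPM (log2FC 0.20, SE 0.023, limma adjusted p 0.0367). The other holds Tbx3, a T-box factor gene, and went from 417 and 422 CPM to 495 and 472 CPM (log2FC 0.20, SE 0.023, limma adjusted p 0.0370). In both, the p20 libraries lay above the p10 libraries. Both belong to the highest GC class, where 239 of 239 bins were higher in both lines. The bins of Pou5f1 (0.19), Nanog and Dppa3 (0.14) and Klf4 (0.13), all genes of the pluripotency list, did not pass, and the bin of Zfp42 had -0.10. The GC-corrected median of the group was 0.012. Growth-control genes, such as the tumour suppressor gene Trp53 (log2FC 0.20), the cell cycle gene Ccnd2 (0.18) and the proto-oncogene Myc (-0.07), had a median of 0.16 over 20 bins, of which 0 passed, beside the same 17.7% of all autosomal bins, and a median of 0.010 after the GC correction.

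Whole autosomes shifted by small amounts that followed their GC content. The shift of a chromosome was the change in the median log2 CPM of its bins against the median of all autosomal bins. Of 19 autosomes 12 passed with limma, 4 higher (7, 9, 11 and 17) and 8 lower (1, 4, 10, 12, 13, 14, 15 and 16), and over all 21 chromosomes tested the share that passed was 61.9%. Chromosome 11, which has the highest median GC content of the autosomes (44.0%), had 0.09 in line 1 and 0.07 in line 2 (mean 0.08, SE 0.017, limma adjusted p 0.0081). Chromosome 16, with 40.4%, had -0.08 and -0.05 (mean -0.06, SE 0.012), and chromosome 14 had -0.06 in both lines (SE 0.0086, limma adjusted p 0.0038). Chromosome 7 had 0.04 in both lines (SE 0.0052). Outside chromosome 3 the shift had the same sign in both lines for 18 of 18 autosomes, and its correlation with the median GC content over these 18 was 0.88 and 0.87, a description over chromosomes of the same libraries. The number that passed was 7 without p10 Mulas2019 replicate 2 and also 7 without p20 Mulas2019 replicate 2, and 7 autosomes (1, 7, 11, 12, 14, 15 and 16) passed in all 10 fits without 1 library. After the GC correction 0 autosomes passed (4.76% of the 21 chromosomes, by the X chromosome), with 4 at an unadjusted p under 0.05, and the shifts outside chromosome 3 were -0.015 to 0.012.

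**Figure D4:**
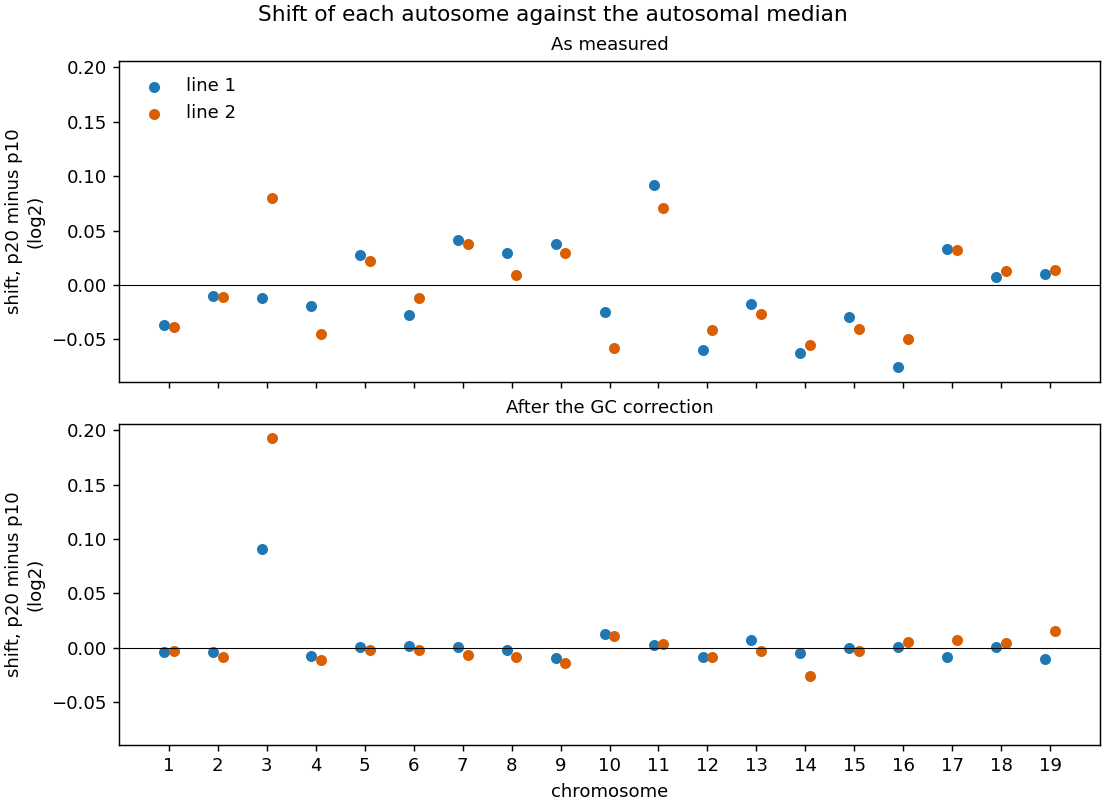
Shift of each autosome from p10 to p20 against the autosomal median (vertical axis, log2), as measured (top) and after the GC correction (bottom), with 1 point per line. The shifts of -0.08 to 0.09 in the top panel come to within -0.026 to 0.015 in either line in the bottom panel, other than those of chromosome 3 at 0.09 and 0.19.

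Chromosome 3 was the autosome that stood apart from the GC trend, and it did so to a different extent in the 2 lines. It held 6.28% of reads at p10 and 6.40% at p20 in line 1, and 6.56% and 7.14% in line 2, with 95% Wilson intervals of 6.267% to 6.285%, 6.39% to 6.41%, 6.55% to 6.57% and 7.13% to 7.15%. As measured, its shift was -0.012 in line 1 and 0.08 in line 2, with a mean of 0.034 (SE 0.058, limma adjusted p 0.612). Leaving out the p20 library of line 2 turned this mean to -0.045. The GC-corrected shift was 0.09 and 0.19, or 1.07-fold and 1.14-fold (mean 0.14, limma adjusted p 0.189). In Keniry2022 conditions the GC-corrected shift of chromosome 3 over p10 to p20 was 0.15 and 0.05 for the libraries labelled replicate 1 and 2 (0.14 and 0.014 as measured), and the difference between protocols did not pass (limma adjusted p 0.720 after the GC correction).

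The GC-corrected change ran through the whole of chromosome 3. It was above 0 in 156 of 157 bins in line 1 and in 157 of 157 in line 2, and line 2 was above line 1 in 157 of 157. On the other 18 autosomes it was above 0 in 931 of 2234 bins in line 1 and in 814 in line 2. Bins of 1 chromosome share its shift in each library, so these counts are descriptions. In 10 equal parts of the chromosome the median was 0.048 to 0.099 in line 1 and 0.146 to 0.201 in line 2, while the median over the other autosomes was at most 0.0012 in either line in every such part. Only 2 bins of the other 18 autosomes had a mean GC-corrected change above the median of chromosome 3. Within the chromosome the change as measured still followed GC content, with slopes of 0.051 and 0.055 per percent.

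**Figure D5:**
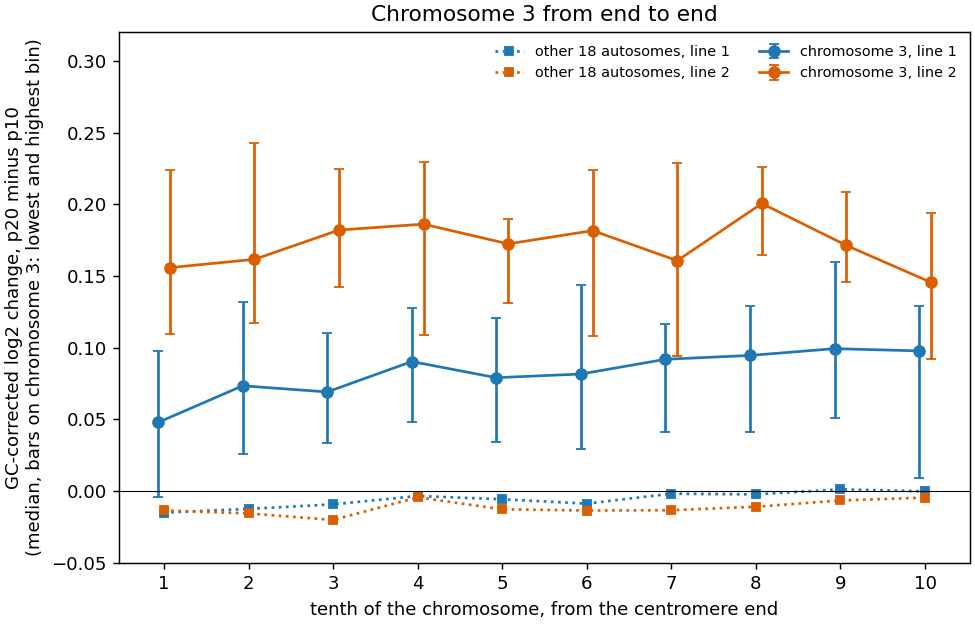
GC-corrected log2 change from p10 to p20 (vertical axis) in 10 equal parts of chromosome 3 counted from the centromere (horizontal axis), with medians as circles, the lowest and highest bin as bars, and the medians of the other 18 autosomes as squares. All 10 medians of chromosome 3 run from 0.048 to 0.099 in line 1 and from 0.146 to 0.201 in line 2, and those of the other autosomes lie between -0.020 and 0.0012.

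Listed genes on chromosome 3 were followed by their bins. The 17 genes start in 15 bins, and all 15 bins had a higher level at p20 in both lines before and after the GC correction. Over the whole chromosome 83 of 157 bins in line 1 and 111 of 157 in line 2 had a higher level before the correction, and the listed bins had a median GC content of 43.3% against 40.1%. The listed bins had a median GC-corrected change of 0.09 in line 1 and 0.18 in line 2. Before the correction 2 of the 15 passed, as higher, beside 11 of the 157 bins of the chromosome and 1.09% of all autosomal bins. The bin of Il6ra, which encodes a cytokine receptor chain, went from 488 and 516 CPM to 582 and 650 CPM (log2FC 0.29, SE 0.046, limma adjusted p 0.0176). The bin of Terc, which encodes the RNA of telomerase, went from 456 and 468 CPM to 527 and 593 CPM (log2FC 0.28, SE 0.046, limma adjusted p 0.0355). In both, the p20 libraries lay above the p10 libraries. They belong to the highest and the ninth GC class, where 239 of 239 and 238 of 239 bins were higher in both lines. The bin of the pluripotency gene Sox2 went from 454 and 474 CPM to 511 and 577 CPM and did not pass (log2FC 0.23, SE 0.043), nor did that of the proto-oncogene Nras (log2FC 0.24, SE 0.041). Of the 26 higher bins of the autosomes, 11 lay on chromosome 3. Of Mulas2019 libraries, leaving out p10 replicate 1 gave 0 higher bins on chromosome 3, p10 replicate 2 gave 3, p20 replicate 1 gave 51 and p20 replicate 2 gave 2. Over the 10 fits without 1 library the number was thus 0 to 51.

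Whether the step from p10 to p20 differed between protocols was tested as an interaction. The p10 to p20 interval holds as many passages in both protocols but is longer in time in Mulas2019 conditions, where passages are further apart, so protocol and time in culture cannot be told apart. For p10 to p20 in Keniry2022 conditions the SD of the change over autosomal bins was 0.067 and 0.085 for the libraries labelled replicate 1 and 2, against 0.15 and 0.16 in Mulas2019 conditions, and the slope per percent GC was 0.012 and 0.023 against 0.041 and 0.040. All 4 slopes were positive. The difference passed in 0 bins with limma's TREAT (0% of 2541), with 69 autosomal bins at an unadjusted p under 0.05, and in 0 with voom, with 91. With no minimum change it passed in 944 autosomal bins (39.5%), so that the count of 0 refers to differences beyond the minimum. After the GC correction and with no minimum, limma called 0 autosomal bins, with 240 at an unadjusted p under 0.05. The count of 69 turned on single libraries, and was 8 without p10 Keniry2022 replicate 1, 149 without p10 Keniry2022 replicate 2, 137 without p10 Mulas2019 replicate 1 and 16 without p10 Mulas2019 replicate 2. Without p20 Keniry2022 replicate 2 it was 39. No autosome differed in its shift (0 of 19, and 0% of the 21 chromosomes, with 6 at an unadjusted p under 0.05). Which p20 Keniry2022 library belongs to which line is in doubt, because their Y chromosome reads were in the opposite order to those of the other groups, so the Keniry2022 values per line rest on those labels. The labels also entered the fit as the line. With the p20 Keniry2022 replicate numbers crossed, 33 autosomal bins were higher and 390 lower from p10 to p20 in Mulas2019 conditions. Of the higher bins 17 lay on chromosome 3, and 13 autosomes passed.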

How the data were processed

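Genomic DNA of 2 male mESC lines was sequenced at low coverage, and groups and replicate numbers were taken from the sample titles. The authors deposited 1 table of log2 values in 272566 windows of 10 kb. Per the labels and methods, bcl2fastq was used for demultiplexing, and Bowtie2 aligned the reads to the mm10 genome. Each deposited log2 value was that of a whole number of reads scaled to the largest library (100.0% whole within 0.1 reads), with 0.9 for windows without reads. The log2 was undone, windows were summed in bins of 1 Mb and scaled to CPM, and bins under 0.1 of the median bin were left out, as were 2 mitochondrial windows. Bins that overlap ENCODE blacklisted regions, which the study left out, were not removed here. GC content came from GRCm38 and genes from GENCODE, and intervals of read shares cover counting error only.

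The study used voom on counts. As the deposited values are log2, bins were tested in R 4.3.3 with limma 3.58.1 (trended prior, statmod 1.5.0) on all 10 libraries, with 5 group coefficients. The line entered as a random effect, estimated by duplicateCorrelation at 0.132. TREAT used a minimum fold change of 1.1 and Benjamini-Hochberg adjustment at 0.05 over 2541 bins, and chromosomes were tested over 21 with no minimum. The GC correction subtracted from each library a loess curve (span 0.3) fitted over its autosomal bins, chromosome 3 included. The pairing by line comes from the study's design. As a check, deviations from the group means after the GC correction were compared between p10 and p20, with r 0.525, and 0.057 without chromosome 3. The fit was also run on simulated counts, but these had no GC trend and no line effect. That run therefore cannot speak to calls made under such a trend. Other steps used Python 3.11.15 with pandas 2.3.3, numpy 2.4.6, matplotlib 3.10.9 and scipy 1.17.1.

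Named bins were the 8 with the largest gain and the 8 with the largest loss that passed with the same sign in both lines, at most 2 per chromosome. After the GC correction they were the 4 highest and 4 lowest outside chromosome 3, by the same limits but called or not, and the 3 in which the lines differed most. Gene groups were the bins that hold the start of listed genes, or at least 5 members of a family by symbol. These lists and rules were chosen with earlier results of these data known. The bins that passed after the GC correction without a minimum change were added after seeing the data.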

Additional observations from a re-analysis of the deposited data

How the results depend on the processing

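The counts depended most on the GC trend and the minimum change. After the GC correction, with a random or a fixed replicate block, 0 bins and 0 autosomes passed, and the shifts of chromosomes 7, 9, 10, 13, 16 and 17, which had passed, were reversed, at -0.0029, -0.012, 0.012, 0.0018, 0.0031 and -0.00056. The SDs of the change were then 0.036 and 0.057 and the slopes 2.77e-05 and 3.75e-05 per percent GC, as the correction itself brings about. With the GC correction and no minimum, chosen after seeing the data, 23 bins passed, 1 higher and 22 lower, and 0 differed between protocols. With no minimum alone, 1924 bins passed, 1031 higher and 893 lower, and 944 differed between protocols. With the minimum read as a log2 fold change of 1.1, as the methods print it, limma called 0 bins, and the number at an unadjusted p under 0.05 was also 0. In bins of 500 kb 877 of 4772 passed, 91 higher and 786 lower, with SDs of 0.16 and 0.17, and in bins of 2 Mb 185 of 1211 passed, 3 higher and 182 lower, with SDs of 0.14 and 0.15. The count of higher bins was also 53 with voom, 17 without the replicate block, 14 with the 4 Mulas2019 libraries alone, 2 after each library was centred on its autosomal median and 48 with CPM computed without chromosome 3. For these the cause was not tested. A fixed replicate block gave 444 bins, 39 higher and 405 lower, and brought chromosome 2 (shift -0.011) past the threshold. The slope in line 2 without chromosome 3 was 0.0411. Without single libraries 301 to 453 bins passed, 1 to 53 higher and 293 to 409 lower, 0 differed between protocols, 7 to 13 autosomes passed, and the shift of chromosome 3 was -0.045 to 0.11. The fit of the 4 libraries had no block, because the correlation between lines could not be estimated there. The 16 named bins had the same direction in all alternatives run in 1 Mb bins, but 16 lost their call after the GC correction with the minimum change and with the log2 minimum of 1.1, 14 after the GC correction with no minimum, 6 when centred, 8 and 3 without p10 Mulas2019 replicates 1 and 2, 4 and 2 without p20 Mulas2019 replicates 1 and 2, and at most 2 in any other alternative. With 2 lines per group the spread is known poorly, and counting errors were 0.82% to 0.93% in a median bin. As the main test asked for a change beyond 1.1-fold, the smallest called log2FC values were -0.19 and 0.19. Smaller changes of single bins were not called.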
